A study of Mus musculus with 6 samples.

Results

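*Nr4a2* and *Nr4a3* encode Nurr1 and NOR-1, the closest relatives of Nur77, the orphan nuclear receptor that is the product of *Nr4a1*. Both genes were taken by name from the table of gene levels, and they are 2 of its 4132 genes. *Nr4a1* itself was not analysed here. The hearts came from *db/db* mice, which are labelled lepr-/- and lack a functional leptin receptor, so that they become obese and diabetic. FGF1ΔHBS, an FGF1 variant with weakened binding to heparan sulfate, was injected intraperitoneally at 0.5 mg/kg every other day into 3 mice, and 3 others received saline as the vehicle. Dosing began at 10 weeks of age and lasted 16 weeks, and all 6 mice were 26 weeks old and carried the same genotype. No heart of a lean or non-diabetic mouse was analysed here, so the levels compare treated with untreated diabetic hearts only.

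NR4A receptors act without a known hormone, because the pocket that holds the ligand in other nuclear receptors is filled by their own side chains, and their activity depends largely on how much of them is made. They are immediate-early genes. Calcium, cyclic AMP, growth factors, β-adrenergic agonists and stretch switch them on within minutes, and CREB bound at cyclic AMP response elements (CREs) in their promoters is a main route. The receptors bind DNA as monomers at an NBRE, or as dimers, and genes of glucose and fat use are among their reported targets in muscle. Because the study centres on Nur77, the comparison asks whether its 2 paralogues also differed between treated and vehicle hearts.

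*Nr4a2* (ENSMUSG00000026826) lies on the minus strand of chromosome 2 of GRCm38 from 57106830 to 57124003, and its longest annotated transcript has 8 exons and 3568 nucleotides. *Nr4a3* (ENSMUSG00000028341) lies on the plus strand of chromosome 4 from 48045153 to 48086447, and its longest transcript has 8 exons and 5720 nucleotides. No other annotated gene overlaps either of them, so their reads are not shared with an antisense or nested gene. The promoters are shown because all 3 NR4A genes are induced through CREB. Each RefSeq promoter (GRCm38.p6) covers 300 bases that span the start of transcription, is printed 5′ to 3′ in the direction of the gene, and has each CRE half-site (TGACG, or CGTCA on the other strand) in capitals.
Nr4a2 promoter, chr2:57123954-57124253, minus strand: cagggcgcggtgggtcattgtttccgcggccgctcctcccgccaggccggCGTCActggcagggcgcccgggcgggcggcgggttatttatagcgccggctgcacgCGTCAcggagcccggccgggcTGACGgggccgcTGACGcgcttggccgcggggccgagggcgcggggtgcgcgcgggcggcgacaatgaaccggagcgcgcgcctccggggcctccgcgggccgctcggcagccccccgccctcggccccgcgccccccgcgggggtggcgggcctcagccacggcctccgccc
Nr4a3 promoter, chr4:48045055-48045354, plus strand: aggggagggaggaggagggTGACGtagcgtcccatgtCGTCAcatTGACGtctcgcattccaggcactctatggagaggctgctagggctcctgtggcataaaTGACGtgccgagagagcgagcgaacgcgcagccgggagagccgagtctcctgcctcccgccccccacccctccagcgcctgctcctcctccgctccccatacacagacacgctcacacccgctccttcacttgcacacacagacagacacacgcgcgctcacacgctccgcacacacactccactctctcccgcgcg

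The promoter of *Nr4a2* held 4 half-sites, beginning at positions -200, -144, -123 and -111 from the RefSeq start of transcription. That of *Nr4a3* also held 4, beginning at -231, -213, -205 and -147. The promoter of *Nr4a1*, for which no level was analysed here, held 4 as well. Of 32817 promoters in the same table, 20.8% held at least 1 half-site on either strand and 0.232% held at least 4. The latter were 76 promoters, 1 of them of *Mfn2*, a gene described below, whose log2 fold change was -0.021. Among the 9678 promoters with at least 60% G and C, a limit chosen after seeing the data, the shares were 31.6% and 0.558%. The half-sites of the 3 NR4A genes all lay upstream of the RefSeq start, but their spacing and strand differed. For *Nr4a3* the annotated gene, from 48045153, begins upstream of that RefSeq start and within the promoter window. By that annotation its half-site at -147 lies just inside the gene. The full CRE, TGACGTCA, which contains the half-site on both strands, was in none of the 3 promoters and in 1.79% of all of them. The NBRE, AAAGGTCA on either strand, was in none of the 3 and in 1.51% of all. These matches are letters in a window of 300 bases and not measured binding. Over the longest transcripts, the pentamer ATTTA, a part of AU-rich elements that shorten the life of many immediate-early messages, occurred 0.841 times per kb in *Nr4a2* and 0.874 times in *Nr4a3*, near the median of 0.777 over 4111 genes.

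**Figure D1:**
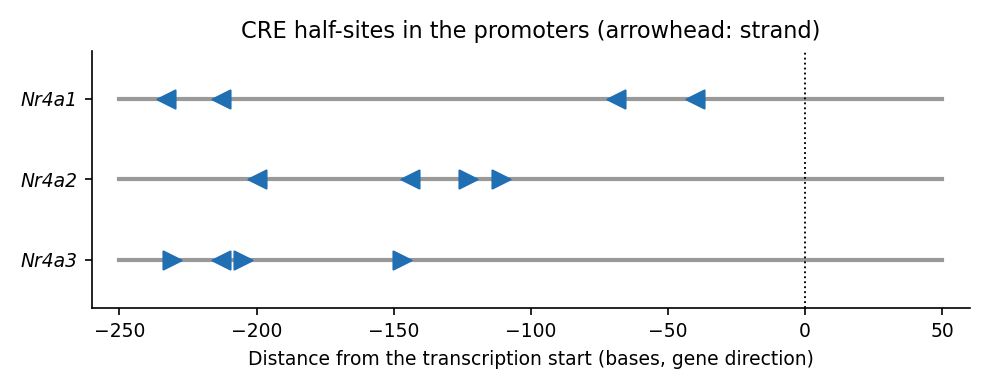
Positions of CRE half-sites in the promoters of *Nr4a1*, *Nr4a2* and *Nr4a3*. The horizontal axis is the distance in bases from the transcription start (dotted line), each row is 1 gene, and each arrowhead is the first base of a half-site and points along its strand. Each promoter holds 4 half-sites, all upstream of the RefSeq start. The annotated *Nr4a3* gene begins upstream of its RefSeq start.

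The table gives FPKM, the fragments on a gene scaled to its transcript length and to the size of the library. Depth is not stated in such values. The commonest step between low values, taken as 1 fragment, put the libraries at 0.947 to 1.17 times the depth of vehicle replicate 1. That step rests on few genes, with only 13 to 20 a library in the fullest narrow range of values. On that reckoning, and if all fragments came from the longest transcript, from 21 to 690 fragments stood behind each value of *Nr4a3* and from 25 to 291 behind each value of *Nr4a2*. The labelled tissue is heart, and of 16 cardiomyocyte markers 4 were in the table, of which *Tnnt2*, *Actc1* and *Atp2a2* were at 1741 FPKM or more in every heart. The fourth, *Nppa*, which encodes atrial natriuretic peptide, was at 170, 431 and 62.2 FPKM in vehicle replicates 1 to 3 and at 75.4, 22.7 and 47.4 FPKM with FGF1ΔHBS (limma, unadjusted p = 0.0296, adjusted p = 0.231). The groups of *Nppa* overlapped, and it was highest in vehicle replicate 2, the heart with the most *Nr4a2*. The samples were heart tissue and not sorted cells, so fewer cells of a type and less RNA per cell cannot be told apart. The paper does not state which chambers were taken.

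*Nr4a3* was lower in every FGF1ΔHBS-treated heart than in every vehicle heart. In the vehicle group its level was 0.947, 3.35 and 5.33 FPKM in replicates 1 to 3. In the FGF1ΔHBS group it was 0.538, 0.170 and 0.321 FPKM. The groups did not overlap, although vehicle replicate 1 lay much closer to the treated hearts than to the other vehicle hearts. The means were 3.21 ± 2.20 FPKM (SD, n = 3 mice) and 0.343 ± 0.185 FPKM (SD, n = 3), so that the vehicle mean was 9.36 times the treated mean, and the ratio of geometric means was 8.32. On the log2(FPKM + 1) scale, which understates the change of low genes, the treated group lay at a log2 fold change of -1.50 (standard error 0.40, 95% confidence interval from -2.43 to -0.57). It did not pass the threshold of 0.05 after adjustment over the 2041 genes that averaged 1 FPKM or more (adjusted p = 0.130 by limma with Benjamini-Hochberg, unadjusted p = 0.00661). *Nr4a3*, with a mean of 1.78 FPKM over all hearts, met that minimum only through vehicle replicates 2 and 3. Every treated heart and vehicle replicate 1 were under 1 FPKM. In the fit without the minimum its adjusted p was 0.252 by limma. A two-sided exact permutation test gave p = 0.1, the smallest that 3 mice against 3 allow.

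The position of *Nr4a3* among the genes puts these values in context. Over the 2041 genes its log2 fold change was the 6th lowest, whereas its p-value ranked 104th, because the vehicle hearts differed from each other by up to 5.63-fold. Only 2 of the 2041 genes passed the adjusted threshold (0.098%), both lower with FGF1ΔHBS, and *Nr4a3* was not one of them. At an unadjusted p-value under 0.05 the share of genes that were lower was 10%, and the share that were higher was 7.1%. In 13.6% of the genes all treated hearts lay below all vehicle hearts, as for *Nr4a3*. The lack of overlap and the unadjusted p-value were therefore not rare among these 2041 genes, and the size of the difference was. *Nr4a3* is counted among them only through its vehicle values.

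*Nr4a2* differed less, and mostly through 1 heart. Its level was 0.311, 3.12 and 0.828 FPKM in vehicle replicates 1 to 3. With FGF1ΔHBS it was 0.520, 0.328 and 0.347 FPKM. The groups overlapped, since vehicle replicate 1 had the lowest value of all 6 hearts, and vehicle replicate 2 stood far above the rest. The vehicle mean was 1.42 ± 1.50 FPKM (SD, n = 3), and the treated mean was 0.398 ± 0.106 FPKM (SD, n = 3). The mean over all hearts, 0.909 FPKM, was under the minimum of 1 FPKM, so *Nr4a2* was tested in a fit without that filter, over 4132 genes. There it had a log2 fold change of -0.62 (standard error 0.40, 95% confidence interval from -1.60 to 0.36, adjusted p = 0.639 and unadjusted p = 0.173 by limma). The two-sided exact permutation test gave p = 0.4.

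The interval of *Nr4a2* includes 0 as well as a difference as large as the estimate for *Nr4a3*. Without vehicle replicate 2 the log2 fold change of *Nr4a2* was -0.15 (adjusted p = 0.800 by limma), and without vehicle replicate 1 it was -0.98 (adjusted p = 0.433). In the fit without a filter 0 genes passed the adjusted threshold (0%), 488 had an unadjusted p-value under 0.05, and 6.63% of the genes were lower by that measure. The share of genes whose treated hearts all lay below the vehicle hearts was 9.17% there, and *Nr4a2* was not among them. In the same fit limma gave *Nr4a3* an unadjusted p-value of 0.0115, which became 0.252 after adjustment.

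**Figure D2:**
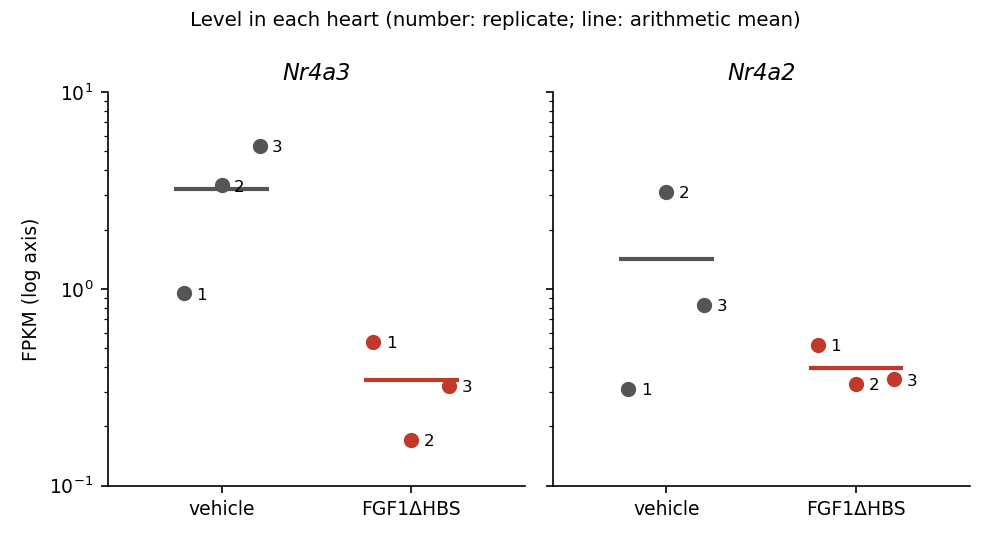
FPKM of *Nr4a3* (left) and *Nr4a2* (right) in each heart on a log axis, by group. Points are mice, numbers are replicates and lines are arithmetic means. For *Nr4a3* the treated hearts at 0.170 to 0.538 FPKM all lie below the vehicle hearts at 0.947 to 5.33 FPKM, whereas for *Nr4a2* vehicle replicate 1 at 0.311 FPKM lies below the treated hearts.

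The 2 paralogues did not move by the same amount from heart to heart. The ratio of *Nr4a3* to *Nr4a2* in FPKM, a scale that takes account of length, was 3.04, 1.07 and 6.44 in vehicle replicates 1 to 3. It was 1.04, 0.519 and 0.925 with FGF1ΔHBS. Every vehicle heart had more *Nr4a3* than *Nr4a2* per length, with the 2 nearly equal in replicate 2. They were also nearly equal in FGF1ΔHBS replicates 1 and 3, and *Nr4a2* was the higher in FGF1ΔHBS replicates 2 and 3. The treated ratios were all below the vehicle ratios, but by a narrow margin, 1.04 in FGF1ΔHBS replicate 1 against 1.07 in vehicle replicate 2. The change of *Nr4a3* minus that of *Nr4a2* was -0.88 on the log2(FPKM + 1) scale (two-sided exact permutation test over 6 hearts, p = 0.1, the smallest possible). Without vehicle replicate 3 this difference was -0.39, and without vehicle replicate 2 it was -1.25 (exact permutation p = 0.1 in both). Without any one of the treated hearts the exact permutation p was 0.2. The sum of both genes was 1.26, 6.47 and 6.16 FPKM in the vehicle hearts and 1.06, 0.498 and 0.667 FPKM in the treated hearts. Vehicle replicate 1 thus stood near the treated hearts for both genes.

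Both genes were of middling or low abundance. *Nr4a3* was above 50.2%, 63.3% and 70.9% of the 4132 genes in vehicle replicates 1 to 3, and above 45.7%, 36.1% and 41.0% of them in the treated hearts. *Nr4a2* was above 40.8%, 62.1% and 49.6% in the vehicle hearts, and above 45.2%, 41.2% and 41.5% in the treated hearts. *Nr4a2* thus kept a place between 40.8% and 49.6% in every heart but vehicle replicate 2.

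**Figure D3:**
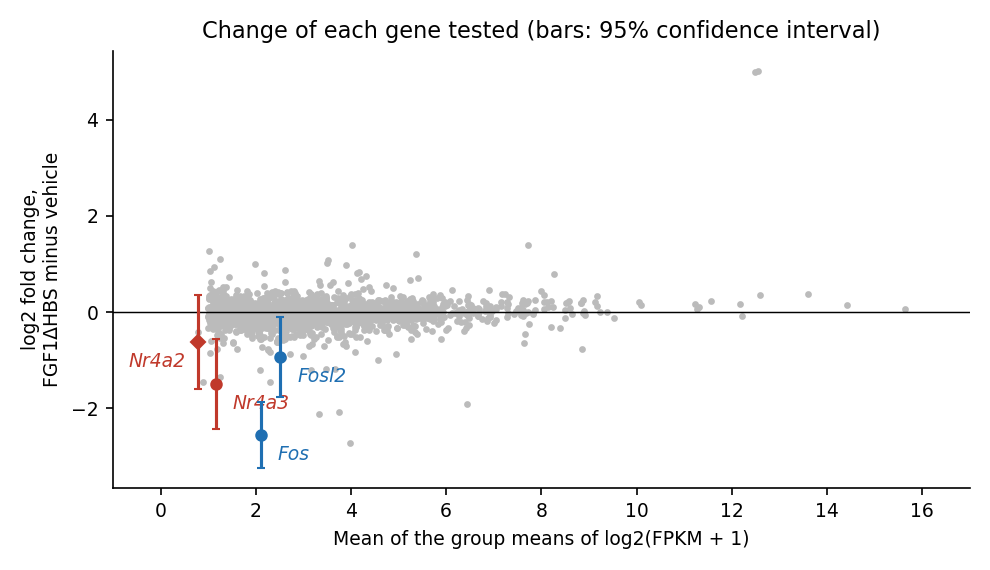
Log2 fold change (FGF1ΔHBS minus vehicle) against the mean level on the log2(FPKM + 1) scale. Grey points are the 2041 genes tested, and coloured points with 95% confidence intervals are *Nr4a3*, *Nr4a2* (diamond, from the fit without a filter), *Fos* and *Fosl2*. *Nr4a3* at -1.50 has an interval below 0, and that of *Nr4a2* at -0.62 crosses 0. The pair of grey points near 5 is *mt-Co2* and *Gm28661*, a mitochondrial and a predicted gene, which are listed at 0 in vehicle replicate 2, the heart with the most *Nr4a2*, and have an adjusted p-value of 0.546 and 0.545 by limma.

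Other immediate-early genes were measured beside the members. Of 51 listed, 11 were in the table and 10 were tested, of which 5 had an unadjusted p-value under 0.05, all lower, and 1 passed the adjusted threshold, where 10% and 0.098% of all genes tested did so. The median log2 fold change of the 10 was -0.39, against -0.021 over all genes tested. *Fos*, a subunit of the AP-1 factor, was at 5.64, 10.7 and 13.8 FPKM in vehicle replicates 1 to 3 and at 0.890, 0.450 and 1.04 FPKM with FGF1ΔHBS, and it fell (log2 fold change -2.56, standard error 0.29, adjusted p = 0.0441 by limma). The log2 fold change of *Fos* was negative in all 15 alternatives, but the call was lost in 10 of them, with adjusted p-values from 0.00908 to 0.216 by limma over the 15. The 10 include the replicate block (0.127), no filter (0.150), and leaving out vehicle replicate 2 (0.125) or FGF1ΔHBS replicate 1, 2 or 3 (0.216, 0.126 and 0.156). The order of the vehicle hearts was the same for *Fos* as for *Nr4a3*, with replicate 1 the lowest and replicate 3 the highest. *Fosl2*, which encodes the AP-1 subunit Fra-2, was at 3.26, 10.7 and 9.07 FPKM with vehicle and 2.97 to 3.50 FPKM with FGF1ΔHBS. Its groups overlapped because vehicle replicate 1 lay among the treated hearts (adjusted p = 0.237 by limma). Vehicle replicate 1 was also the heart that made the groups of *Nr4a2* overlap. *Mafk*, which encodes a small Maf factor, was at a log2 fold change of -0.61 (limma, adjusted p = 0.116). The Krüppel-like factors *Klf4* and *Klf10* were at -0.52 and -0.50 (limma, adjusted p = 0.212 and 0.116). For these 3 the treated hearts all lay below the vehicle hearts, as in 13.6% of all genes tested. The other 5 tested had unadjusted p-values above 0.05, with log2 fold changes from -0.28 (*Errfi1*, a feedback inhibitor of EGF receptors) to 0.15 (*Zfp36l1*, an mRNA decay factor).

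The genes whose profile over the 6 hearts was most like that of each member were found by the root mean square difference of log2(FPKM + 1) after each gene was centred on its own mean. This is a description over 6 hearts that share 2 groups. The genes were chosen by likeness over these same hearts, so a highest value in the same heart follows largely from that choice. For *Nr4a3* the nearest of 2040 genes was *Fosl2*, with a difference of 0.363, against 0.909 for a flat profile. *Cd72*, *Xaf1*, *Cd14* and *H2-T23* followed, with 0.475 to 0.528. Those 4 had their highest value in vehicle replicate 3, where *Nr4a3* was also highest. For *Nr4a2* the nearest of 2041 genes were *Aqp1* (0.276), *Hbb-bt* (0.280), *Gm42937* (0.320), *Ciart* (0.331) and *Fosl2* (0.333), against 0.584 for a flat profile. All 5 had their highest value in vehicle replicate 2, where *Nr4a2* was highest. *Fosl2* was the gene named for both members.

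Markers of other cell types were measured in the same hearts, and none of those tested passed the adjusted threshold. *Cd14*, a monocyte and macrophage receptor, was at 3.84, 3.91 and 9.17 FPKM in vehicle replicates 1 to 3 and at 2.40 to 3.04 FPKM with FGF1ΔHBS. *Ptprc*, which encodes the pan-leukocyte antigen CD45, was at 1.67, 1.32 and 3.43 FPKM with vehicle and at 1.01 to 1.21 FPKM with FGF1ΔHBS. The groups did not overlap for either gene (limma, adjusted p = 0.230 for *Cd14* and 0.298 for *Ptprc*). In 13.6% of all genes tested the treated hearts likewise lay below all vehicle hearts. These were the 2 of 13 leukocyte markers in the table, and their sum was 5.23 to 12.6 FPKM in the vehicle hearts and 3.41 to 4.26 FPKM in the treated hearts. Both were highest in vehicle replicate 3, the heart with the most *Nr4a3*. Neither was at 0 in any heart. *Hbb-bt*, an adult β-globin and the 1 of 6 erythroid markers in the table, was at 202, 397 and 192 FPKM with vehicle and at 118 to 204 FPKM with FGF1ΔHBS (limma, adjusted p = 0.343). Its groups overlapped, and it was highest in vehicle replicate 2, the heart with the most *Nr4a2*. The part of leukocytes or blood in the levels of the 2 receptors was not tested. Without vehicle replicate 3, the log2 fold change of *Nr4a3* was -1.13 (adjusted p = 0.0779 by limma, in a fit where 84 genes passed). *Cd14* and *Ptprc* were higher in the other vehicle hearts too, so leaving out that heart is no test of the leukocyte part. *Dcn*, the 1 of 10 fibroblast markers in the table, was higher in every treated heart, at 154 to 288 FPKM with vehicle and 368 to 431 FPKM with FGF1ΔHBS (limma, adjusted p = 0.154), and it was lowest in vehicle replicate 3. Over all genes tested, 218 of 2041 were higher in every treated heart. Of the 2 of 8 smooth muscle and pericyte markers in the table, *Acta2*, which encodes smooth muscle actin, was also higher in every treated heart, at 10.3 to 14.1 FPKM with vehicle and 17.5 to 27.3 FPKM with FGF1ΔHBS (log2 fold change 0.82, limma, unadjusted p = 0.00198, adjusted p = 0.116). *Pdgfrb*, the other, was at 8.34 to 13.5 FPKM with vehicle and 8.84 to 10.3 FPKM with FGF1ΔHBS, and its groups overlapped. *Adipoq*, the 1 of 8 adipocyte markers in the table, was at 0, 0.217 and 0 FPKM with vehicle and at 1.21, 0.246 and 0.648 FPKM with FGF1ΔHBS. It was thus low in all hearts but higher in every treated one (limma without a filter, unadjusted p = 0.0227, adjusted p = 0.317). In that fit 299 of 4132 genes were higher in every treated heart. The part of these cell types in the levels of *Nr4a2* and *Nr4a3* was not tested either. The endothelial markers *Tie1* and *Emcn*, 2 of 10 listed, summed to 21.7 to 46.7 FPKM with vehicle and 24.9 to 42.0 FPKM with FGF1ΔHBS, and their groups overlapped. *Ahsg*, the 1 of 8 liver markers in the table, was at 2.69, 11.9 and 1.49 FPKM with vehicle and at 5.53, 4.44 and 11.1 FPKM with FGF1ΔHBS. It was thus highest in vehicle replicate 2 and nearly as high in FGF1ΔHBS replicate 3. *Slc12a1*, the 1 of 10 kidney markers, was at 0.844 FPKM or less in every heart.

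**Figure D4:**
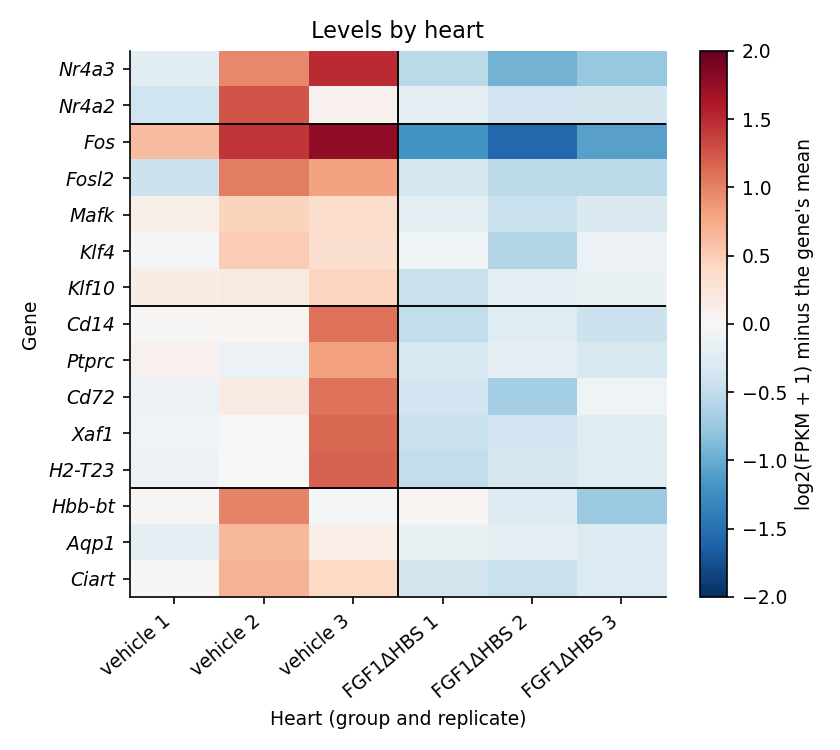
Level of *Nr4a3*, *Nr4a2* and 13 other genes in each heart as log2(FPKM + 1) minus the mean of the gene over the 6 hearts, red above and blue below that mean. Columns are hearts, and rows from the top are the members, immediate-early genes, leukocyte markers with genes like *Nr4a3*, and genes like *Nr4a2*. *Nr4a3*, *Cd14* and *Ptprc* are highest in vehicle replicate 3, and *Nr4a2* and *Hbb-bt* in vehicle replicate 2. *Cd14* and *Hbb-bt* are also among the genes chosen for their likeness to a member over these hearts.

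Genes that act upstream of the NR4A promoters came next. Of 51 listed genes of cyclic AMP, calcium, MAPK, SRF and MEF2 signaling, 7 were in the table and tested, of which 1 was lower and 1 higher at an unadjusted p-value under 0.05. With 7 genes this is near the shares over all genes, 10% lower and 7.1% higher. The median log2 fold change was -0.092. *Mef2d*, which encodes a MEF2 factor that binds NR4A promoters in response to calcium, was at 38.2 to 42.0 FPKM with vehicle and 30.8 to 33.1 FPKM with FGF1ΔHBS (log2 fold change -0.30, standard error 0.067, adjusted p = 0.116 by limma). *Adcy5*, a cardiac adenylyl cyclase that makes cyclic AMP, was at 8.56 to 9.36 FPKM and 9.64 to 11.8 FPKM (log2 fold change 0.23, adjusted p = 0.276 by limma). For both genes the groups did not overlap, and neither gene passed the adjusted threshold. Of the 2041 genes tested, the groups did not overlap for 277 lower and 218 higher genes. *Crtc2*, a coactivator of CREB, was at 5.86 to 7.79 FPKM with vehicle and 5.55 to 6.20 FPKM with FGF1ΔHBS, and its groups overlapped (adjusted p = 0.450 by limma).

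Among other genes that CREB is known to drive, 3 of 23 were in the table and 2 were tested, *Fos* and *Cited2*. *Cited2*, which encodes a regulator of CBP and p300, was at 15.1 to 21.4 FPKM with vehicle and 16.6 to 21.6 FPKM with FGF1ΔHBS (log2 fold change 0.10, adjusted p = 0.771 by limma), and its groups overlapped. *Pde10a*, a phosphodiesterase that breaks down cyclic AMP and cyclic GMP, was under the minimum mean and was taken from the fit without a filter. It was at 0.711, 0.894 and 0.596 FPKM in vehicle replicates 1 to 3 and at 0.399, 0.335 and 0.481 FPKM with FGF1ΔHBS (log2 fold change -0.30, limma, unadjusted p = 0.0140, adjusted p = 0.266). All treated hearts thus lay below all vehicle hearts for *Pde10a*, as they did for 9.17% of the genes in that fit. Of these 3 genes, *Cited2* and *Pde10a* held no CRE half-site in the promoters matched in the RefSeq table, and *Fos* held 2. Of 9 immediate-early genes with a matched promoter, 5 held at least 1, among them *Fos* with 2 and *Mafk* with 1, and *Fosl2* held none. The share was 20.8% over all promoters and 31.6% over those with at least 60% G and C. Those shares are per promoter, whereas a gene with several promoters was counted by the promoter that held the most.

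Of 28 listed partners and coregulators of NR4A receptors, 5 were tested, and 2 had an unadjusted p-value under 0.05, both lower, where 10% of all genes were lower by that measure. The median log2 fold change was -0.034. *Kdm1a*, a histone demethylase of the CoREST complex through which Nurr1 represses genes, was at 9.11 to 11.4 FPKM with vehicle and 7.79 to 9.13 FPKM with FGF1ΔHBS (adjusted p = 0.276 by limma). *Ncoa2*, *Park7* and *Gsk3b* had log2 fold changes between -0.034 and 0.022.

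Reported targets of NR4A receptors in muscle and heart were looked at next. Of 49 listed, 8 were in the table and 6 were tested, of which 1 passed the adjusted threshold, lower with FGF1ΔHBS. An unadjusted p-value under 0.05 was found for 2 lower genes and 1 higher gene of the 6, where the shares over all genes were 10% and 7.1%. The median log2 fold change was -0.14. *Ucp3*, a mitochondrial uncoupling protein of muscle, was at 49.2, 22.9 and 30.3 FPKM in vehicle replicates 1 to 3 and at 10.7, 19.6 and 18.4 FPKM with FGF1ΔHBS (adjusted p = 0.163 by limma). The paper reports the opposite direction, a rise of *Ucp3* mRNA with FGF1ΔHBS in *db/db* hearts. In these values all treated hearts lay below all vehicle hearts for *Ucp3*, as in 13.6% of all genes tested. Among the vehicle hearts alone *Ucp3* was highest in replicate 1, which had the least *Nr4a2* and *Nr4a3*. A link between *Ucp3* and the 2 receptors was not tested. *Phkg1*, the catalytic subunit of muscle phosphorylase kinase, which starts the breakdown of glycogen, was at 4.92, 8.26 and 8.54 FPKM with vehicle and at 10.2 to 14.4 FPKM with FGF1ΔHBS (log2 fold change 0.65, adjusted p = 0.173 by limma). It was the higher gene of the list. *Cpt1b*, which admits fatty acids to the mitochondrion, was at 206 to 274 FPKM and 186 to 206 FPKM (log2 fold change -0.25, adjusted p = 0.312 by limma). *Mfn2* and *Atp2a2* had log2 fold changes of -0.021 and 0.17, within the spread between mice. No promoter of the 5 list members that were matched in the RefSeq table held an NBRE in its 300 bases, where 1.51% of all promoters did.

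Of 26 listed genes of AMPK, SIRT1 and mitochondrial fission, the processes around which the study set its question on Nur77, 4 were in the table and tested, of which 1 was higher at an unadjusted p-value under 0.05, where 7.1% of all genes were. *Sirt1*, an NAD-dependent deacetylase, was at 5.35, 5.68 and 4.61 FPKM with vehicle and at 5.48, 4.30 and 6.23 FPKM with FGF1ΔHBS (log2 fold change 0.021, standard error 0.13, adjusted p = 0.958 by limma). The ranges of *Sirt1* overlapped widely. *Acaca*, the acetyl-CoA carboxylase that AMPK phosphorylates and inhibits, was at 0.850 to 1.24 FPKM with vehicle and 1.28 to 1.70 FPKM with FGF1ΔHBS (log2 fold change 0.34, adjusted p = 0.232 by limma). *Mief2*, an adaptor that brings Drp1 to mitochondria, and *Mfn2*, a mitofusin, had log2 fold changes of -0.0030 and -0.021. *Dnm1l*, which encodes Drp1, and *Prkaa2*, which encodes AMPKα2, were not analysed here. Of 46 other nuclear receptors listed, 3 were in the table and 1 was tested, *Esrrg*, an orphan receptor of cardiac energy metabolism. *Esrrg* was at 7.13 to 10.5 FPKM with vehicle and 9.55 to 10.5 FPKM with FGF1ΔHBS (log2 fold change 0.17, adjusted p = 0.551 by limma), so it did not share the low values of *Nr4a3* in the treated hearts.

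The lower level of *Nr4a3* kept its direction in all 15 alternative treatments of the data, with log2 fold changes from -2.69 to -1.13 and adjusted p-values from 0.0392 to 0.363 by limma. It passed the adjusted threshold in 1 of them, without vehicle replicate 1, where the log2 fold change was -1.98. That of *Nr4a2* was negative in all 14 alternatives, from -1.12 to -0.15, and passed in none (adjusted p = 0.433 to 0.800 by limma).

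**Figure D5:**
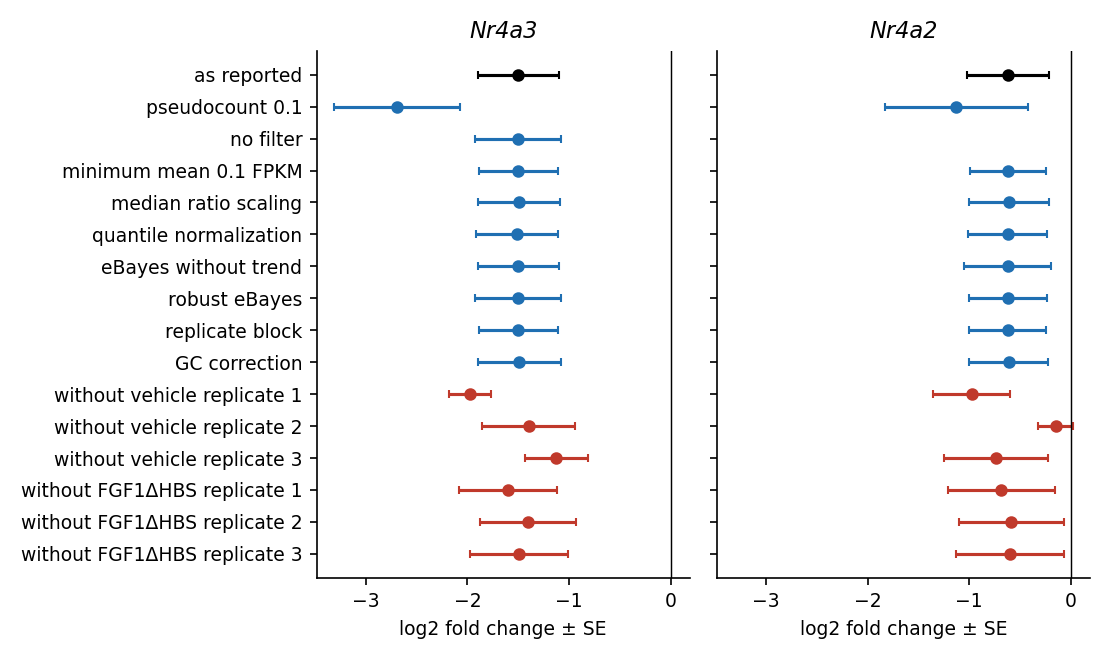
Log2 fold change (FGF1ΔHBS minus vehicle) with its standard error for *Nr4a3* (left) and *Nr4a2* (right), as reported (black), under other processing (blue) and without each mouse (red). The fit without a filter is the reported one for *Nr4a2*, so it has no second point there. *Nr4a3* ranges from -2.69 to -1.13, and *Nr4a2* comes nearest to 0, at -0.15, without vehicle replicate 2.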

How the data were processed

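RNA was sequenced from the hearts of 3 vehicle-treated and 3 FGF1ΔHBS-treated *db/db* mice. Trimmomatic was used by the authors on the reads, and the deposited table holds a single FPKM for each gene in each mouse. The submitters' processing notes list Bowtie 0.12.2, HISAT2 2.0, StringTie 1.3.0 and the build mm8, with no role or order. However, the positions of both members equal those of GENCODE M21 on GRCm38. Of 4132 gene identifiers 4111 were found there, all on the same chromosome, and 2101 of these (51.1%) had the same start and end. The paper describes single-end reads and the labels paired-end libraries, and the labels mention adipose RNA. The table ends partway through a row, so it holds only part of the genes, and no gene set test was run.

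Values were transformed to log2(FPKM + 1). Those averaging 1 FPKM or more, 2041 genes, entered limma 3.58.1 under R 4.3.3 (lmFit, eBayes with trend, group only), and p-values were adjusted over them by Benjamini-Hochberg at 0.05. *Nr4a2*, under that minimum, was taken from the fit without a filter. The fit was tested on simulated data. Single values were compared by two-sided exact permutation tests. Replicate numbers were not used as pairs in the main fit. Mice that share a replicate number deviated from their group means with correlations of -0.0078, -0.16 and -0.22 over genes. These values do not settle whether the mice were paired, and pairings by the sample names were not compared.

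The members and gene lists were chosen with earlier results of these data known. Genes named are both members, up to 6 of each list with an unadjusted p-value under 0.05, the best expressed where a list had none, the 5 genes most like each member and genes of the study's account of Nur77. A few others of these lists were added after their values were seen. Some genes that this rule names are not reported here. The alternatives tried were leaving out each mouse, a block for the replicate number, eBayes without trend or robust, quantile normalization, median ratio scaling, a smaller pseudocount (0.1), a lower minimum (0.1 FPKM) and no minimum. A lowess correction for GC content, and all alternatives for *Fos*, were added after seeing the data.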

Additional observations from a re-analysis of the deposited data

How the results depend on the processing

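How many genes passed the adjusted threshold, 2 of 2041, was not stable. It was 4 with a pseudocount of 0.1, 0 with no filter (488 at an unadjusted p-value under 0.05), 5 with a minimum mean of 0.1 FPKM, 1 with median ratio scaling, quantile normalization or eBayes without trend, 5 with robust eBayes and 1 with the GC correction, which was chosen after seeing the data. With the replicate block it was 0 (269 at an unadjusted p-value under 0.05). Leaving out each mouse gave from 0 to 84 genes by limma. The 84 came without vehicle replicate 3, and 0 came without vehicle replicate 2 or FGF1ΔHBS replicate 2 (270 and 231 had an unadjusted p-value under 0.05). The cause was not tested, except that filters change the number of genes tested.

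Without each mouse, *Nr4a3* ranged from -1.98 (without vehicle replicate 1, adjusted p = 0.0392 by limma) to -1.13 on the log2 scale, *Nr4a2* from -0.98 to -0.15, and the difference between them from -1.25 to -0.39. With a pseudocount of 0.1 the values were -2.69, -1.12 and -1.57, since this scale compresses low values less. The replicate block changed no call on either gene (adjusted p = 0.273 and 0.683 by limma). The size of *Nr4a2* therefore depends on vehicle replicate 2. Over all genes the log2 fold change had a median of -0.021, and of 0.0020 with median ratio scaling and 0.0076 with quantile normalization. The fragments behind the lowest values, about 21 for *Nr4a3*, limit their precision, and FPKM values do not give the counts themselves.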
